A study of Rattus norvegicus with 8 samples.

Results

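The imprinted Dlk1-Dio3 locus carries one of the largest groups of microRNA genes in mammals, and its members were followed here in pancreatic islets of young and adult rats. The members were taken by name, as every mature product (either arm, any copy letter) of 43 listed hairpins of the locus that the array carries. This gave 81 of the 677 miRNAs on the array. Both arms were represented for 38 hairpins and 1 arm for 5. The rule used names only and no measured value, but it was chosen with earlier results of these data known.

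The series compared islets of Sprague Dawley rats at 10 days of age (P10, 4 biological replicates) with islets of 3-month-old male Sprague Dawley rats (adult, 4 biological replicates). Total RNA was hybridised to 1-colour (cyanine 3) Agilent miRNA arrays, 1 array for each replicate. The labels name no treatment, call the P10 rats controls, and give neither the sex of the P10 rats nor whether animals were pooled, so p-values describe the spread between these samples. Islets hold endocrine cells beside vessels, blood and mesenchyme, and in such bulk RNA fewer cells of one type and less of an RNA in each cell cannot be told apart.

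The locus is expressed from one parental chromosome: the paternal copy makes the protein-coding RNAs Dlk1, Rtl1 and Dio3, and the maternal copy makes the long non-coding RNAs Meg3, Rian and Mirg, from which the miRNAs are cut. A first group of hairpins lies around Meg3 and on the strand opposite Rtl1, and a second, larger group lies within Mirg and runs from miR-379 to miR-410. The locus is best known in brain and placenta, and in human islets its maternal RNAs were reported to be lower in type 2 diabetes. Mature miRNAs recognise target messages mainly through their seed, so the sequences of the members on which the results turn are given first, 5′ to 3′, as RefSeq (assembly GRCr8) holds them, with the seed (bases 2 to 8) in capitals. The array uses an older naming in which an asterisk marks the arm once thought to be discarded, and arms were matched to RefSeq through it. RefSeq held a mature sequence for 37 of the 39 members that could be tested (miR-127* and miR-136 are named only).

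The members of the upstream group that passed the test between the ages, all of them higher in adults, were these.
miR-127: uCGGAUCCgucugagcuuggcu
miR-136*: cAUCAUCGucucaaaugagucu
miR-341: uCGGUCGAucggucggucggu

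In the downstream group the members that passed with higher signals in adults were these.
miR-495: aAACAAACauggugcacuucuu
miR-376b-5p: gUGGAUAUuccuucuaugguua
miR-154: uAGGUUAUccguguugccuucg
miR-154*: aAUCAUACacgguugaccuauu
miR-541: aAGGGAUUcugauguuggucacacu

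The members of the downstream group that passed with lower signals in adults were these.
miR-379: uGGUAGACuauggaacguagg
miR-411: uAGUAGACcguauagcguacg
miR-299: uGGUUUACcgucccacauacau
miR-539: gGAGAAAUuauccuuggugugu

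The other arms of miR-376b and miR-411, which differed from their partners in how they moved, and miR-494, which separated the P10 arrays, are shown for comparison.
miR-376b-3p: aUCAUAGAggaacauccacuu
miR-411*: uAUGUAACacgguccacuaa
miR-494: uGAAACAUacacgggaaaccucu

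No seed was shared by any 2 of the tested members that had a sequence. The closest seeds differed at 1 base, and 8 pairs were that close. Among them were GGUAGAC of miR-379 and AGUAGAC of miR-411, which lie on neighbouring hairpins and were both lower in adults. UCAUAGA of miR-376b-3p came that close to UCGUAGA of miR-376a and to ACAUAGA of miR-376c, and none of these 3 passed the test. AUCAUAC of miR-154* came that close to AUCAUUC of miR-382* and to AUCGUAC of miR-487b, of which only miR-154* passed. The mature miR-376a and miR-376b-3p differed by 3 edits over their whole length and miR-376a and miR-376c by 4, so cross-hybridisation between their probes is possible and was not tested.

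Values below are log2 of the background-subtracted signal of the brightest probe of a miRNA, divided by the 75th percentile of probes detected on all arrays, so 0 is the level of that percentile. They compare arrays for one miRNA and do not rank different miRNAs, whose probes differ in brightness. The percentile itself was lower on P10 replicates 1 and 2 (388.2 and 439.9 units of signal) than on the other 6 arrays (989.0 to 1690.3), so dim miRNAs lay closer to background on those 2 arrays, and the slide column coincided with age, so column and age cannot be told apart. The islet miRNAs miR-375, miR-7a and miR-7b were well above background on all 8 arrays. Their summed level was 3.53 to 4.65 at P10 and 5.41 to 5.60 in adults, and all 3 were higher in adults. The miRNAs of acinar tissue (3 of 6 products tested, none past the test) summed to -0.06 and -0.32 on P10 replicates 1 and 2 against -3.63 and -3.92 on P10 replicates 3 and 4, and to -2.12 to -1.12 in adults. The gut and duct miRNAs (miR-192, miR-194 and miR-215) were all lower in adults, from 0.14 to 3.75 at P10 to -1.83 to -0.98. Of 5 tested mesenchymal products 3 were lower and 1 was higher (miR-143, by 0.93). Their summed level was 2.09 to 2.88 at P10 and 2.35 to 2.83 in adults. Both tested erythroid miRNAs were higher in adults, miR-451 by 1.47 and miR-144 by 0.91. Of the leukocyte miRNAs, 3 of 4 products were tested and none passed, but miR-142-3p was at 1.36 on P10 replicate 4 against -2.22 to -1.67 on the other P10 arrays and -0.45 to -0.01 in adults. P10 replicate 4 is the array that lies among or next to the adults for miR-136*, miR-341 and miR-337 below. The endothelial miR-126 products (2 tested) did not pass. The neural miRNAs miR-124 and miR-9 (4 products) were not well above background on any array. The part of these other markers in the differences of the locus was not tested.

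The locus was widely represented in islets at both ages. Of its 81 products, 25 were well above background on all 8 arrays, a further 14 on 4 to 7 arrays, 6 on 1 to 3 arrays and 36 on none, counted on the brightest probe of each. Another probe of 3 of the 36 (miR-134, miR-377 and miR-379*) was above background on 1 array, which leaves 33 seen by no probe. The 39 products seen on at least 4 arrays were tested, which is 48.1% of the members beside 33.4% of the other miRNAs on the array. They came from 28 hairpins, with both arms tested for 11 of them and 1 arm for 17, and 15 hairpins had no tested product. On a single array, 26, 27, 39 and 40 members were well above background at P10 (33.0 ± 7.53, SD, n = 4) and 43, 37, 44 and 41 in adults (41.2 ± 3.1, SD, n = 4). Over all 677 miRNAs the counts were 188, 198, 238 and 231 at P10 and 247, 218, 248 and 241 in adults. The lowest counts were those of P10 replicates 1 and 2, the arrays with the lowest signal, and the other P10 arrays lay within the adult range. Of the 39 tested members, 11 were not well above background on both of these arrays, while 37 were so on all 4 adult arrays.

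On their brightest probes, the products below background throughout included both arms of miR-134, a miRNA known for its action in neuronal dendrites. Neither arm of miR-673, miR-493, miR-540, miR-758, miR-496, miR-377 or miR-412 was seen on any array by that probe either. The single products of miR-665 and miR-668 were not seen by any probe. Of the remaining partner arms, miR-770, miR-380, miR-543, miR-370*, miR-379*, miR-299*, miR-323*, miR-329*, miR-494*, miR-667*, miR-376c*, miR-300-5p, miR-381*, miR-487b*, miR-539*, miR-485*, miR-541* and miR-410* were likewise not well above background on any array by that probe. miR-380* was above background on 2 P10 arrays and 1 adult array. The products above background in adults alone numbered 5: miR-485 and miR-543* on 3 of 4 adult arrays, miR-770* on 2, and miR-369-3p and miR-667 on 1. Of these, miR-667 read -4.98 and -4.62 on P10 replicates 1 and 2 without counting as above background there, and was at the floor of the scale on the other 6 arrays, so its P10 mean (-5.15) was above its adult mean (-5.51). Likewise miR-770* was at the floor on all 4 adult arrays and read -5.33 on P10 replicate 1. The scaled signal of miR-369-3p was at the floor on all 8 arrays. No fold is given for these 5 products, since averaged over the 4 P10 arrays the lowest signal counted as above background exceeded their adult means. That signal was -4.11 and -4.27 on P10 replicates 1 and 2 but lay at the floor on P10 replicates 3 and 4. The adult means of miR-485 (-5.28) and miR-543* (-5.33) were above that floor. A further 8 products of hairpins known from the locus but not listed (miR-544, miR-666, miR-1188 and miR-1193) were not above background on any array.

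Whether the locus as a whole changed between 10 days and 3 months was asked next. It did not move one way: of 39 tested members, 8 were higher in adults, 4 were lower and 27 did not pass the test (limma with Benjamini-Hochberg adjustment over all 238 tested miRNAs, adjusted p under 0.05). The 8 higher members were 20.5% of those tested, beside a background of 27.3% (65 of 238 miRNAs), and the 4 lower members were 10.3%, beside 20.2% (48 of 238). The ages did not overlap for 9 members (23.1%), beside 45.8% of all tested miRNAs, and all 9 had passed the test. The median difference, adult minus P10, was -0.02 for the members and -0.01 for all tested miRNAs. The median size of the difference, sign aside, was 0.19 for the members and 0.52 for all tested. A single member, miR-299, both passed the test and differed at least 2-fold (2.56% of the members), beside 62 miRNAs in all (26.1%). The members' shares were thus below the background in both directions, a difference that was itself not tested. The filter bears on the split. The higher members miR-495, miR-376b-5p, miR-154* and miR-541 were above background on 2 P10 and 4 adult arrays, so they met it through the adults. With only miRNAs above background on all 8 arrays, 4 members were higher and 3 lower, beside 43 and 40 of 164 miRNAs.

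Scaling and background correction changed this split. Taking the 75th percentile over every probe on the array gave 10 higher and 1 lower member. Spike-in scaling gave 9 higher and none lower, and unscaled signals gave 4 and none. Cyclic loess gave 9 higher and 2 lower members when fitted on bright probes, and 1 and none when fitted on every probe. Normexp background correction gave 1 higher and 7 lower members. The calls over all 238 tested miRNAs, 65 higher and 48 lower as reported, moved as well. They were 90 and 34 with the percentile of every probe, 96 and 20 with spike-in scaling, and 58 and 17 unscaled. Cyclic loess gave 71 and 44 on bright probes and 12 and 22 on every probe, and normexp gave 33 and 46. The median difference of all 238 miRNAs, -0.01 as reported, also moved: to 0.45 with the percentile of every probe, 0.91 with spike-in scaling, 0.94 unscaled, 0.24 and 0.15 with the bright-probe and every-probe loess, and -0.30 with normexp. Differences of some members are therefore also given relative to that median.

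**Figure D1:**
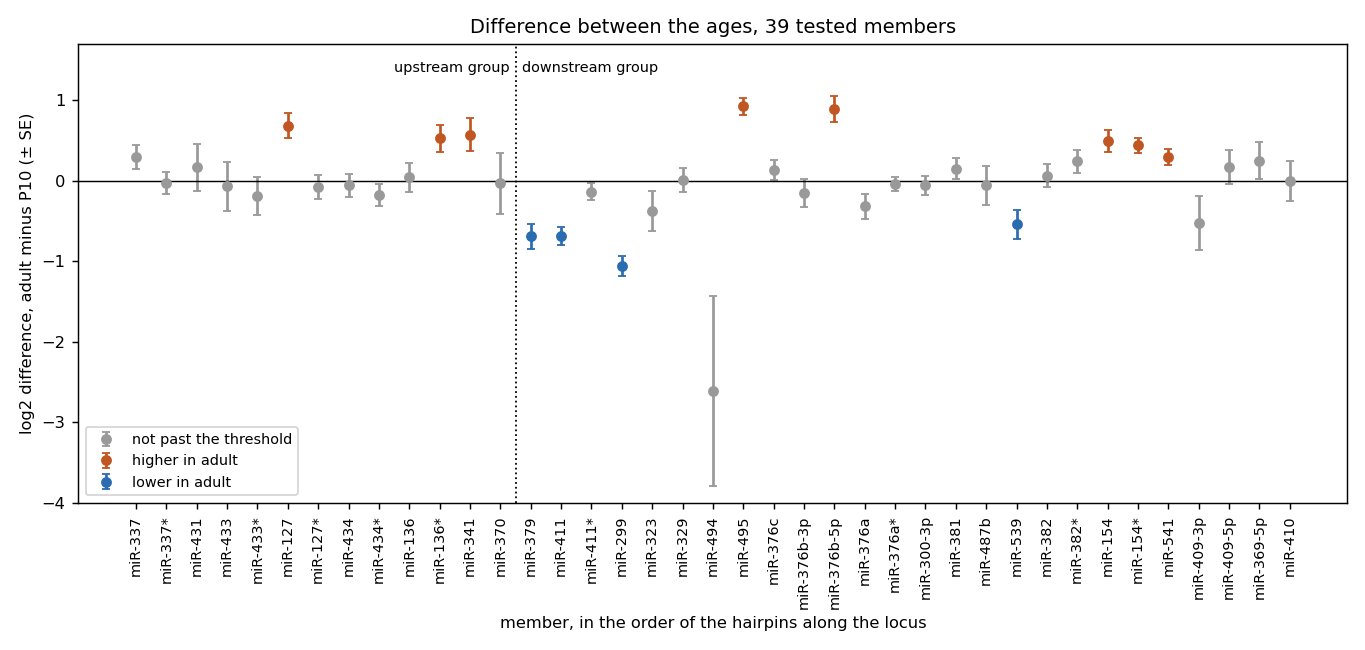
Log2 difference, adult minus P10, with its standard error, for the 39 tested members in the order of their hairpins along the locus (x axis), with the upstream and downstream groups divided by a dotted line. Orange points passed the test as higher in adults (8), blue points as lower (4) and grey points did not pass (27); miR-379, miR-411 and miR-299 sit side by side below 0 at the start of the downstream group, miR-494 has the largest difference and the largest error, and under other scalings some signs turn, as the text gives.

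All 43 hairpins had a place in the RefSeq gene order on chromosome 6, 13 of them in the upstream and 30 in the downstream group. The upstream group had 13 tested products, of which 3 were higher, none lower and 10 not past the test, with a median difference of -0.02. The downstream group had 26 tested products, of which 5 were higher, 4 lower and 17 not past the test, also with a median of -0.02. In both groups members past the test lay between members that were not.

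In the upstream group the miRNAs opposite Rtl1 include miR-431, miR-433, miR-127, miR-434 and miR-136. They match the Rtl1 message completely and are known to lead to its cleavage. miR-127 was at 0.28, 0.50, 0.34 and 0.86 on the 4 P10 arrays and at 1.07, 1.08, 1.28 and 1.29 on the adult arrays. Every adult array was above every P10 array, with P10 replicate 4 closest to the adults. The mean rose from 0.49 ± 0.26 to 1.18 ± 0.12 (SD, n = 4 each), a difference of 0.69 ± 0.15 (SE) or 1.61-fold (limma adjusted p = 0.00645). A second probe of miR-127, above background on all 8 arrays, gave 0.81. The call was kept without each array in turn, at 0.62 to 0.81, but not with quantile normalization, either cyclic loess or the authors' own value table (difference 0.60, limma adjusted p = 0.0623), all of which kept its direction. Relative to the median difference of all tested miRNAs, it was only 0.03 and 0.12 with cyclic loess on every probe and on bright probes.

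miR-136* was at -2.30, -2.11, -2.18 and -1.57 at P10 and at -1.55, -1.49, -1.60 and -1.41 in adults. The groups overlapped through P10 replicate 4 alone, which lay inside the adult range. The difference was 0.53 ± 0.17 (SE; limma adjusted p = 0.0337), and it stayed past the test in only 11 of 24 alternative settings. It was lost on leaving out any single array other than P10 replicate 4, with adjusted p of up to 0.0801. Relative to the median of all tested miRNAs, it was 0.04 with cyclic loess on every probe.

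miR-341, which is known from rodents, was at -3.66, -3.26, -3.31 and -2.68 at P10 and at -2.82, -2.61, -2.61 and -2.57 in adults. Again P10 replicate 4 lay among the adult arrays and the other 3 P10 arrays lay below them. The difference was 0.57 ± 0.20 (SE; limma adjusted p = 0.0474). It too was lost on leaving out any single array other than P10 replicate 4 (adjusted p of up to 0.11). Without P10 replicate 4 both calls were kept, at 0.68 for miR-136* and 0.76 for miR-341 (limma adjusted p = 0.000818 and 0.00268). That array was the one that caused both overlaps, so these fits add no evidence. Leaving it out also raised the calls over all tested miRNAs from 113 to 138 of 238.

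Other miRNAs opposite Rtl1 did not pass the test. miR-434 was at -0.25, -0.06, 0.09 and 0.34 at P10 and between -0.18 and 0.09 in adults, a difference of -0.06 ± 0.14 (SE). miR-431 and miR-433 differed by 0.17 ± 0.29 and -0.07 ± 0.31 (SE). Their errors were large because both were low on P10 replicate 1 (-3.41 and -4.67) and high on P10 replicate 4 (-1.97 and -3.17), with the adults between. miR-337, near the upstream end, had the largest positive difference of the members that did not pass, 0.29 ± 0.15 (SE; limma adjusted p = 0.155). It was at -2.77, -2.45, -2.65 and -2.11 at P10 and -2.26, -2.24, -2.21 and -2.10 in adults, overlapping only through P10 replicate 4. Without that array it passed the test (0.42, limma adjusted p = 0.0123). The array left out was the one that caused the overlap, so this pass adds no evidence.

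**Figure D2:**
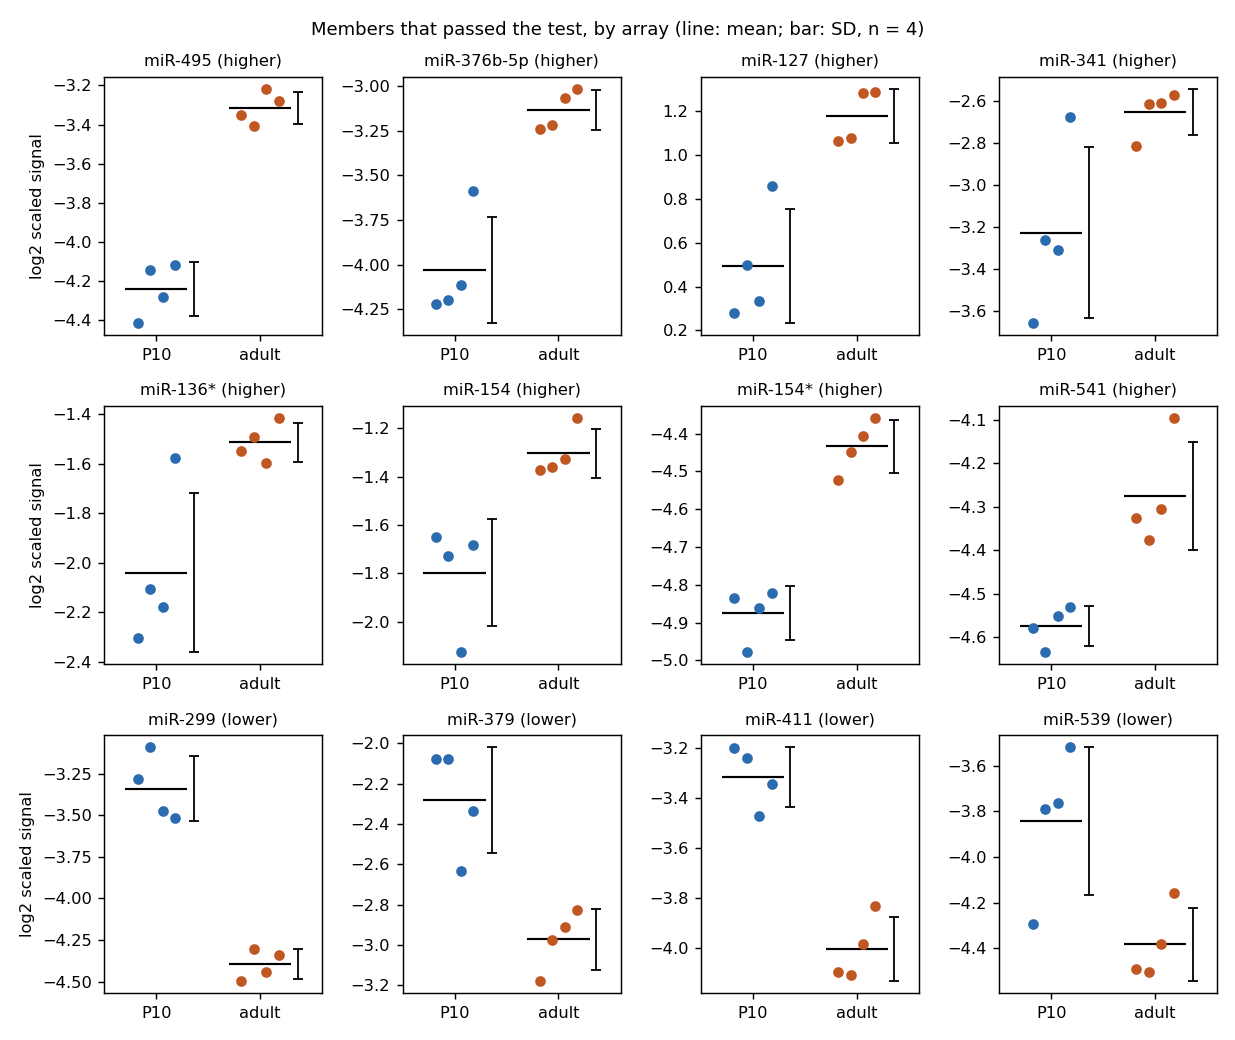
Log2 scaled signal on each array for the 12 members that passed the test, P10 in blue and adult in orange, with the mean as a line and the SD (n = 4) as a bar beside it; each panel has its own y axis, which does not start at 0. The ages do not overlap in 9 panels, and in those of miR-136*, miR-341 and miR-539 a P10 array lies among the adult arrays. The directions of miR-154* and miR-541 turn with normexp background correction, and those of the 4 lower members under other scalings or cyclic loess, as the text gives.

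In the downstream group, the 3 hairpins next to its upstream end gave 3 lower products. miR-379 was at -2.08, -2.08, -2.63 and -2.33 at P10 and at -3.18, -2.97, -2.91 and -2.83 in adults, and every P10 array was above every adult array. It fell by 0.69 on the log2 scale (SE 0.16, 1.61-fold, limma adjusted p = 0.00752). miR-411 was at -3.20, -3.24, -3.47 and -3.34 at P10 and at -4.09, -4.11, -3.98 and -3.83 in adults, again without overlap and with a P10 spread of 0.12 (SD, n = 4). It fell by 0.69 on the log2 scale (SE 0.11, limma adjusted p = 0.00155).

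miR-299 had the largest difference of any member past the test. It was at -3.28, -3.09, -3.47 and -3.52 at P10 and at -4.50, -4.31, -4.44 and -4.34 in adults. The gap between the ages was wider than the whole range within either age. It fell by 1.06 on the log2 scale (SE 0.13, 2.08-fold, limma adjusted p = 0.00026), and a second probe gave -1.0. All 3 of these were well above background on all 8 arrays, and their calls were kept without each array in turn.

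Their direction rested on scaling each array to its own signal. With no scaling miR-379 and miR-411 turned to 0.27 and 0.27, and with spike-in scaling to 0.24 and 0.25, neither past the test, while miR-299 was at -0.10 and -0.12. Relative to the median difference of all tested miRNAs, which those settings moved to 0.94 and 0.91, the 3 members stayed lower: miR-379 at -0.67 and -0.66, miR-411 at -0.67 and -0.66 and miR-299 at -1.04 and -1.03. Relative to that median, miR-379 and miR-411 were lower in all 24 alternatives and miR-299 in all but cyclic loess over all probes (0.47). Subtracting that median removes any factor common to an array. Settings that only rescale arrays could therefore hardly change these values and do not test them, and the block settings left the differences themselves unchanged. Quantile normalization and normexp do more than rescale. Relative to the median, miR-379, miR-411 and miR-299 were at -0.64, -0.52 and -0.93 with the first and at -0.40, -0.46 and -0.70 with the second.

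miR-539, further along the cluster, was at -4.29, -3.79, -3.76 and -3.52 at P10 and at -4.49, -4.50, -4.38 and -4.16 in adults. P10 replicate 1, where its signal was not well above background, lay among the adults. Its difference of -0.54 ± 0.18 (SE; limma adjusted p = 0.0389) stayed past the test in 6 of 23 alternatives and turned to 0.35 with no scaling, 0.34 with spike-in scaling, and 0.76 and 0.06 with cyclic loess on every probe and on bright probes. It is the least stable of the 12 calls.

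Higher members of the downstream group included 2 with differences near 2-fold. miR-495 was at -4.42, -4.14, -4.28 and -4.12 at P10 and at -3.35, -3.41, -3.22 and -3.28 in adults. The ages were separated by more than the range within either. The mean rose by 0.92 ± 0.11 (SE), or 1.90-fold (limma adjusted p = 0.000247). miR-376b-5p was at -4.22, -4.20, -4.12 and -3.59 at P10 and at -3.24, -3.22, -3.07 and -3.02 in adults, without overlap. It rose by 0.89 ± 0.16 (SE), or 1.86-fold (limma adjusted p = 0.00254).

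Both were dim. On P10 replicates 1 and 2 neither was well above background, with background-subtracted signals of 18.2 and 24.9 units for miR-495 before scaling, against 50.9 and 97.5 on P10 replicates 3 and 4 and 131.8 to 180.4 in adults. With P10 replicates 3 and 4 alone both calls were kept. With normexp background correction, which adds an offset and compresses dim signals, the differences shrank to 0.05 and 0.08 and neither passed. Cyclic loess on every probe also lost both calls (0.59 and 0.71). The mean of probes gave 0.22 for miR-376b-5p, still past the test, since its 3 other probes were at the floor on all 8 arrays. The sizes of these 2 differences are therefore less certain than their standard errors, while both calls were kept without each array in turn.

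miR-154 gives its name to a family of related sequences in this cluster. It was at -1.65, -1.73, -2.13 and -1.68 at P10 and at -1.37, -1.36, -1.32 and -1.16 in adults, without overlap, and P10 replicate 3 was the lowest. It rose by 0.49 ± 0.13 (SE; limma adjusted p = 0.0182), and the call was lost without adult replicate 4 (0.44, limma adjusted p = 0.0524). Its other arm, miR-154*, was at -4.83, -4.98, -4.86 and -4.82 at P10 and at -4.52, -4.45, -4.41 and -4.36 in adults.

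miR-154* had an SD of 0.07 at each age (n = 4) and no overlap. It rose by 0.44 ± 0.09 (SE; limma adjusted p = 0.00541), although it was not well above background on P10 replicates 1 and 2 and turned to -0.44, not past the test, with normexp correction. Relative to the median of all tested miRNAs, miR-154* was at 0.06 with no scaling and 0.09 with spike-in scaling. miR-541 was at -4.58, -4.63, -4.55 and -4.53 at P10 and at -4.33, -4.38, -4.31 and -4.10 in adults, also without overlap. Its difference of 0.30 ± 0.10 (SE; limma adjusted p = 0.0406) was the smallest past the test, was lost on leaving out any single array other than P10 replicate 4 (adjusted p of up to 0.102) and turned to -0.43 with normexp correction. Relative to that median, miR-541 was at 0.07 with no scaling and 0.10 with spike-in scaling.

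Of the 12 members past the test, 7 were well above background on all 8 arrays and 5 (miR-495, miR-376b-5p, miR-539, miR-154* and miR-541) on 6 or 7. Of the 12, 9 had another probe above background on at least 4 arrays, and all 9 other probes gave the same sign, with a median gap of 0.06 and a largest gap of 0.30. Over all tested members 27 of 31 such probes gave the same sign as the brightest one. The calls of miR-376b-5p, miR-539 and miR-541 rested on 1 probe each, since their other probes were at the floor on all 8 arrays. With the mean of probes miR-539 and miR-541 did not pass (-0.14 and 0.15, limma adjusted p = 0.162 and 0.105). The calls of miR-136*, miR-341, miR-539 and miR-541 were lost on leaving out most single arrays. The other 8 were kept in all 8 such fits, except miR-154 in 1 of them.

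**Figure D3:**
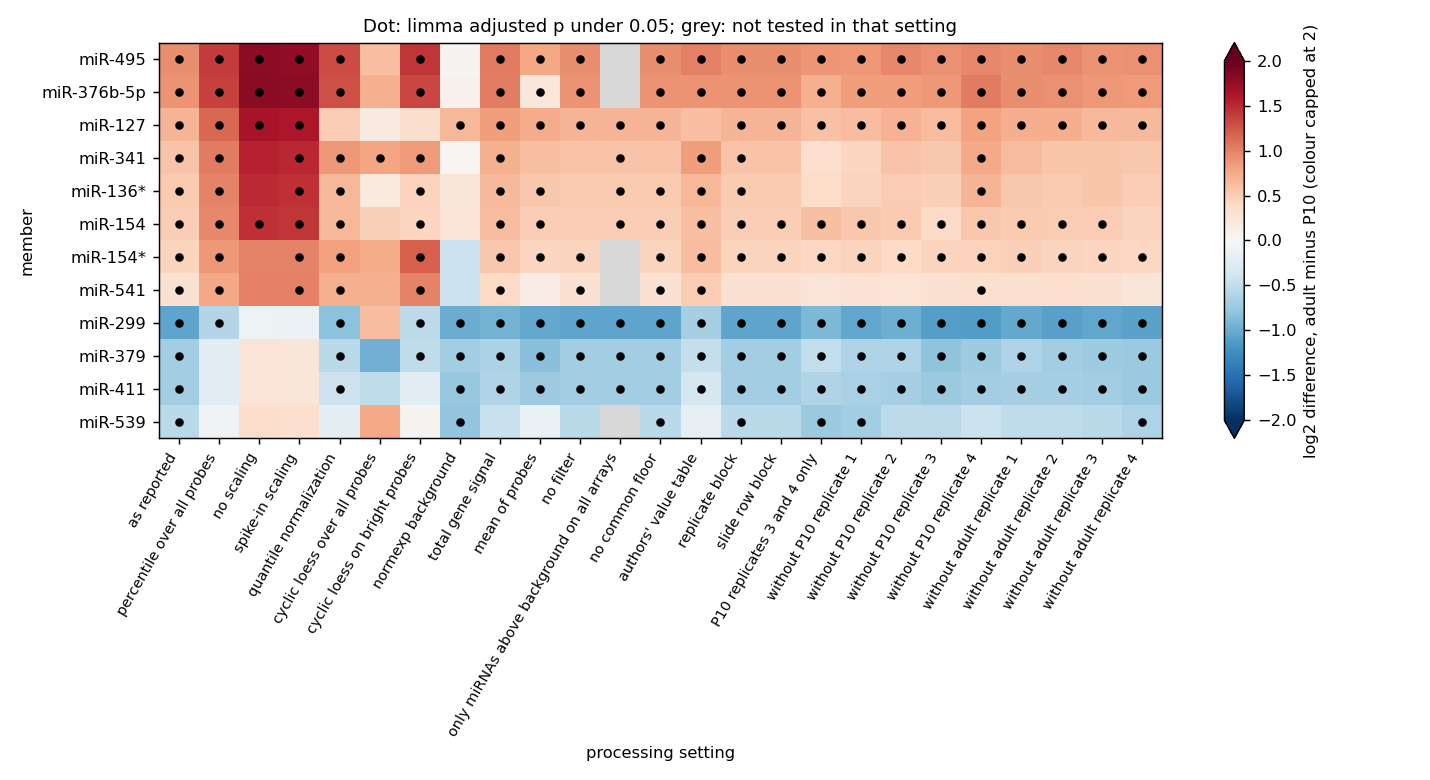
Log2 difference, adult minus P10, of the 12 members that passed the test (rows) as reported and under 24 other processing settings (columns), on a red to blue scale capped at 2; a dot marks a limma adjusted p under 0.05 and grey marks a member not tested in that setting. The rows of miR-495, miR-376b-5p and miR-127 stay red (palest for the first 2 with normexp) with most of their dots, while miR-379, miR-411 and miR-539 turn from blue to pale red with no scaling and spike-in scaling, cyclic loess fitted on every probe turns miR-299 and miR-539 red, and normexp turns miR-154* and miR-541 blue.

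Since both arms of a hairpin come from the same precursor, their differences were set side by side for the 11 hairpins with both arms tested, and the difference between arms was fitted on its own (35 hairpins over the whole array, of which 8 or 22.9% passed, limma adjusted p under 0.05). Of the 11 locus hairpins 3 passed, and of the other 24 hairpins 5. This fit was added after the values of the arms had been seen. The offset between arms on an array includes the brightness of 2 probes, so only its change with age is read.

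For miR-127 the offset from miR-127* was 4.12, 4.32, 4.38 and 4.34 at P10 and 5.05, 5.11, 5.10 and 4.96 in adults. The ages did not overlap, and the offset grew by 0.77 ± 0.09 (SE; limma adjusted p = 0.00123). miR-127* itself was at -3.84, -3.82, -4.04 and -3.48 at P10 and at -3.98, -4.04, -3.81 and -3.67 in adults, a difference of -0.08 ± 0.15 (SE). In this scaling 1 arm rose and the difference of the other was smaller than its error. The change of the offset turned to -0.57 and -0.09 with cyclic loess on every probe and on bright probes, and was lost also with quantile normalization and in the authors' own value table.

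For miR-376b the offset of the 5p from the 3p arm was -0.67, -0.47, 0.18 and 0.29 at P10 and 0.84, 0.82, 1.03 and 0.83 in adults. The 4 adult arrays lay together, and the P10 arrays fell into 2 pairs, both below them. The change was 1.05 ± 0.22 (SE; limma adjusted p = 0.0122), and the call was lost with cyclic loess on every probe (0.04, limma adjusted p = 0.97) and with the mean of probes (0.39, limma adjusted p = 0.131). miR-376b-3p was at -3.55, -3.72, -4.30 and -3.88 at P10 and between -4.09 and -3.84 in adults, a difference of -0.15 ± 0.17 (SE). The miR-376 hairpins are known to be edited from adenosine to inosine, which array probes do not resolve.

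For miR-411 the offset from miR-411* was 0.20, 0.12, -0.09 and 0.05 at P10 and -0.35, -0.63, -0.60 and -0.35 in adults, without overlap. It changed by -0.56 ± 0.11 (SE; limma adjusted p = 0.0122), and this was lost with both cyclic loess settings and with normexp correction. miR-411* was at -3.40, -3.36, -3.38 and -3.40 at P10, the smallest P10 spread of the tested members (0.02, SD, n = 4), and at -3.74, -3.48, -3.38 and -3.48 in adults. Its difference was -0.14 ± 0.11 (SE).

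The other hairpins did not pass. The arms of miR-154 moved together, at 0.49 and 0.44, with a change of the offset of 0.05 ± 0.13 (SE; limma adjusted p = 0.721). miR-136 and miR-136* had offsets of 2.06, 1.92, 1.26 and 1.34 at P10 and 1.11, 1.06, 1.25 and 1.22 in adults. These did not overlap, but P10 replicates 3 and 4 lay next to the adults, and the change of -0.49 ± 0.20 (SE) had a limma adjusted p of 0.109. For the hairpins of miR-337, miR-376a, miR-382, miR-409, miR-433 and miR-434 the change of the offset ran from -0.28 (miR-376a) to 0.70 (miR-409), with limma adjusted p of 0.133 or more.

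**Figure D4:**
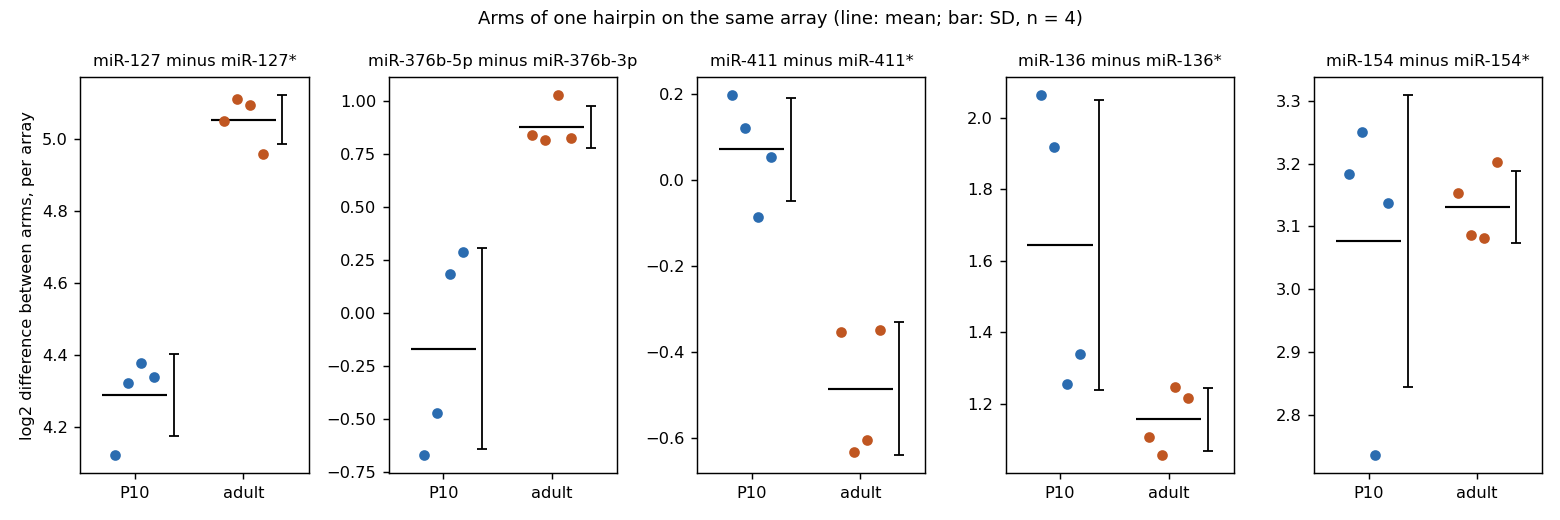
Log2 difference between the arms of a hairpin on each array for 5 hairpins, P10 in blue and adult in orange, with the mean as a line and the SD (n = 4) as a bar; each panel has its own y axis, which does not start at 0. The ages do not overlap for miR-127, miR-376b, miR-411 and miR-136 and overlap for miR-154. The change of miR-127 turns its sign under cyclic loess.

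The 27 members that did not pass the test lay mostly close to 0, with 20 of them within 0.2. Their differences ran from -2.61 (miR-494) to 0.29 (miR-337), and from -0.53 without miR-494. Besides miR-337, the largest positive differences were those of miR-369-5p (0.25 ± 0.23, SE), miR-382* (0.24 ± 0.14, SE) and miR-409-5p (0.17 ± 0.21, SE). miR-369-5p was at -3.39, -2.83, -2.58 and -2.23 at P10 and between -2.65 and -2.41 in adults, so the adults lay inside the P10 range. miR-382* was at the floor of the scale on P10 replicates 1 and 2, at -5.44 and -4.96 on P10 replicates 3 and 4, and between -5.16 and -5.07 in adults. It passed the test without P10 replicate 4 (0.37, limma adjusted p = 0.00438), but that array alone caused its overlap with the adults, so the pass adds no evidence. miR-409-5p was at -4.17, -3.75, -3.62 and -3.14 at P10 and between -3.61 and -3.37 in adults.

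On the negative side miR-494, miR-409-3p (-0.53 ± 0.34, SE), miR-323 (-0.38 ± 0.25, SE) and miR-376a (-0.32 ± 0.15, SE) had the largest differences. miR-376a was at -1.36, -1.23, -1.64 and -0.99 at P10 and at -1.79, -1.58, -1.50 and -1.62 in adults. The ages overlapped through P10 replicate 3, and without it the member passed (-0.43, limma adjusted p = 0.038). Since the array left out was the one that caused the overlap, this pass adds no evidence. miR-323 was at the floor on P10 replicates 1 and 2, at -4.97 and -4.39 on P10 replicates 3 and 4, and at or near the floor (-5.51 to -5.43) in adults. With P10 replicates 3 and 4 alone it passed the test as lower (-0.79, limma adjusted p = 0.00656), together with miR-433 and miR-433*.

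A few members had adult and P10 means that lay close together. miR-410, at the far end of the cluster, differed by -0.01 ± 0.25 (SE), miR-329 by 0.01 ± 0.15 (SE) and miR-300-3p by -0.05 ± 0.12 (SE). A second probe of miR-300-3p, above background on 7 arrays, gave -0.58, so its probes disagree.

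miR-494 separated the arrays of one age more than any other member. The first 2 P10 arrays read 3.92 and 3.13, the other 2 read -1.55 and -0.33, and the adult arrays read -1.46, -1.81, -1.47 and -0.52 in adults. The last 2 P10 arrays lay within or next to the adult range, and the first 2 were far above it. The difference between the ages, -2.61 ± 1.18 (SE), did not pass (limma adjusted p = 0.11), and its second probe gave -2.70. Without P10 replicate 3 it passed (-3.56, limma adjusted p = 0.0228), so 1 array decided that call. With P10 replicates 3 and 4 alone set against the adults, it was -0.38 (limma adjusted p = 0.518). Signal before scaling was 5874.5 and 3844.9 units on P10 replicates 1 and 2, against 338.4 and 1347.0 on P10 replicates 3 and 4 and 400.7 to 893.2 in adults.

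The other members high on the same 2 arrays were few. Of the 39 members, 7 had both P10 replicates 1 and 2 above both P10 replicates 3 and 4, beside 95 of all 238 tested miRNAs (39.9%). Both were below for 14 of the 39, beside 69 of 238 (29.0%). These shares were not tested against the background, and neither order is read as particular to the locus. The 7 were miR-494, miR-409-3p, miR-370, miR-376b-3p, miR-379, miR-299 and miR-411. miR-409-3p read -3.61, -4.12, -4.97 and -5.10 across the P10 arrays and between -5.13 and -4.65 in adults. miR-370 was at -2.49, -3.39, -4.25 and -3.94 at P10 and at -3.57, -3.52, -4.01 and -3.10 in adults. The acinar sum given above was high on the same 2 arrays and their total signal was low, and the part of either in these members was not tested.

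Among the 14 members low on those 2 arrays were miR-433, miR-431, miR-323, miR-433*, miR-410, miR-487b, miR-369-5p and miR-409-5p, with mean gaps between the pairs of arrays from -1.04 to -0.58. The 3 lower members at the start of the downstream group were among the 7 with the opposite order, with gaps of 0.41 (miR-379), 0.31 (miR-299) and 0.19 (miR-411). With P10 replicates 3 and 4 alone set against the adults, these 3 were still lower, by -0.49, -0.90 and -0.60 in the same order (limma adjusted p = 0.0238, 0.000373 and 0.00418).

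**Figure D5:**
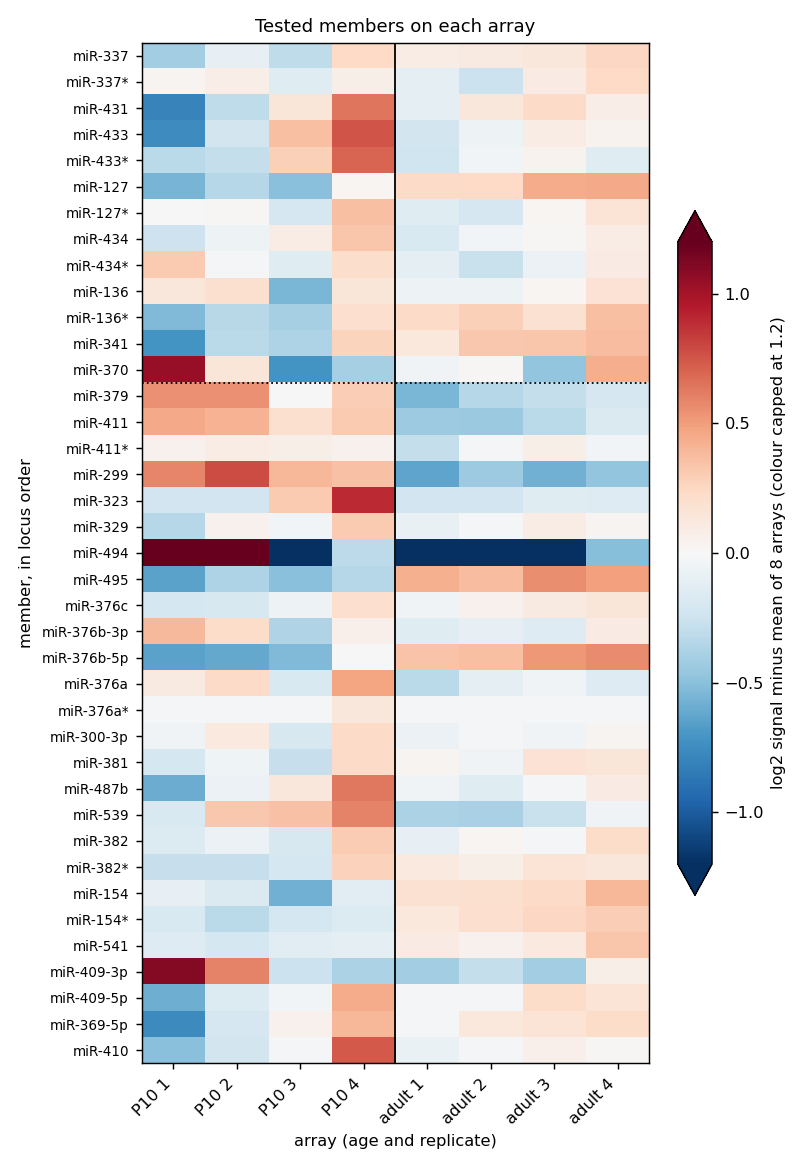
Log2 signal of each tested member on each array, minus its mean over the 8 arrays, on a red (above) to blue (below) scale capped at 1.2; rows follow the locus, with a dotted line between the upstream and downstream groups, and a vertical line divides P10 from adult arrays. The P10 columns differ among themselves more than the adult columns, with miR-494 high on P10 1 and 2 and many members high on P10 4.

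For the members, the P10 arrays differed more among themselves than the adult arrays. The SD was larger at P10 than in adults for 35 of 39 members, with a median of 0.27 at P10 and 0.11 in adults. The same count over all tested miRNAs was not made, so this is not read as particular to the locus. As a share of the summed signal of all miRNAs, the locus made up 8.83%, 6.92%, 3.73% and 5.65% at P10 and 3.11%, 3.31%, 3.47% and 3.77% in adults. P10 replicates 1, 2 and 4 were above every adult array and P10 replicate 3 lay just below the highest adult. Without miR-494 the shares were 3.53%, 3.84%, 3.60% and 5.34% at P10 and 3.01%, 3.23%, 3.37% and 3.58% in adults, so most of the excess on P10 replicates 1 and 2 was this single product.

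Imprinted miRNAs from other loci were looked at in the same way. Of 9 products of miR-675, miR-483, miR-296, miR-298 and miR-335, 3 were tested. miR-483*, whose hairpin lies within Igf2, was at -2.99, -2.30, -4.12 and -3.04 at P10 and at -1.61, -1.41, -2.35 and -1.56 in adults, and rose by 1.38 ± 0.39 (SE; limma adjusted p = 0.0206). miR-296* fell by 0.93 on the log2 scale (SE 0.29, limma adjusted p = 0.0342) and miR-335 differed by -0.01 ± 0.26 (SE).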

How the data were processed

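Total RNA of 8 islet samples was hybridised to 1-colour Agilent miRNA arrays, 8 on 1 slide and in 1 scan. Per the file headers, signal intensities were extracted with Agilent Feature Extraction 10.7.3.1, which subtracts background. The array carries 13540 features on an rn4 design, and 1644 probes report 677 miRNAs. The log2 values of the authors' deposited table share 1 set of sorted values over arrays, as after quantile normalization, and served as an alternative. Further upstream steps are not given in the sources used here.

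Outlier features (2.34% to 3.65% of an array) were left out and a probe's remaining features averaged. Signals were scaled to the array's own 75th percentile over the 278 probes detected on all arrays and floored at -5.51 (log2). The brightest probe stood for its miRNA. No probe was saturated. The 238 miRNAs that stood well above background on 4 or more of the 8 arrays entered the limma 3.58.1 fit in R 4.3.3, adult minus P10, with Benjamini-Hochberg adjustment at 0.05, after the script was tested on simulated data. The fit between arms used the same settings.

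The members, lists and naming rule were chosen with earlier results of these data known. The rule named every member past the test, the 4 largest differences each way among the rest, members seen at 1 age only, and both arms of hairpins with both tested. Alternatives changed scaling (27 spike-in probes among them), background correction (normexp, offset 50), probe choice, filter, floor, blocks and arrays. The number of arrays limits the precision. Gene order came from RefSeq (GRCr8), whose coordinates are not printed because the array design is on rn4.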

Additional observations from a re-analysis of the deposited data

Results flagged for a closer look

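Of 66 groups of 4 arrays examined over the members, 6 held an array far from the other 3 (Dixon's test at its 95% critical value, which chance passes in about 1 in 20 groups). P10 replicate 3 was low for miR-136 (-0.92, log2 scaled signal) and for miR-154 (-2.13). P10 replicate 4 was high for miR-376b-5p (-3.59), miR-382* (-4.96) and miR-376a* (-5.35), the last with the other P10 arrays at the floor of the scale. Adult replicate 1 was low for miR-341 (-2.82). The arrays in question were P10 arrays in 5 of the 6 cases. Without P10 replicate 3 the difference of miR-154 still passed the test, and without P10 replicate 4 that of miR-376b-5p did.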

How the results depend on the processing

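Each result was recomputed under 24 alternatives, 8 of which left out 1 array. Higher calls numbered 8 and lower calls 4 as reported. Against these, the percentile over all probes gave 10 and 1, no scaling 4 and 0, spike-in scaling 9 and 0, cyclic loess over all probes 1 and 0, cyclic loess on bright probes 9 and 2, and normexp 1 and 7. Over all 238 tested miRNAs the calls, 65 and 48 as reported, were in the same order 90 and 34, 58 and 17, and 96 and 20. Next came 12 and 22, 71 and 44, and 33 and 46. No filter gave 5 and 3, only miRNAs above background on all arrays 4 and 3, the slide row as a block 5 and 3, and P10 replicates 3 and 4 alone 5 and 7. Over all miRNAs these settings gave 47 and 38 (of 677), 43 and 40 (of 164), 50 and 40, and 73 and 52. Leaving out 1 array gave 4 to 10 higher and 3 to 5 lower calls, with 4 higher without adult replicate 4, 10 without P10 replicate 4 and 5 without any other array. Over all tested miRNAs, 50 were higher and 41 lower without adult replicate 4, and 78 and 60 without P10 replicate 4. Deviations of same-numbered samples from their group means had correlations of 0.18, -0.09, 0.48 and -0.23. With 4 values of mixed sign, these cannot tell whether the numbers pair the samples. The fit with the replicate block gave 7 higher and 4 lower calls, losing miR-541, beside 51 and 44 over all tested miRNAs. Of the 27 members not past the test, 0 to 15 turned sign in a given alternative (15 with no scaling and with spike-in scaling, 14 with each cyclic loess and with the authors' own value table). Where a member past the test as reported or in the alternative was concerned, signs turned as follows, and the cause was not tested. With no scaling miR-379, miR-411 and miR-539 were at 0.27, 0.27 and 0.35, and with spike-in scaling at 0.245, 0.245 and 0.34, with miR-370 at 0.90. With cyclic loess over all probes miR-299 and miR-539 were at 0.61 and 0.76 (miR-539 at 0.0596 when fitted on bright probes), and with normexp miR-154* and miR-541 at -0.44 and -0.43. The arm difference of miR-127 turned to -0.57 and -0.0879 with the 2 cyclic loess settings. Called arm differences numbered 0 with cyclic loess over all probes and 3 to 5 without 1 array, with 5 without P10 replicate 3. The median size of the members' differences about the median of all tested was 0.351 of that of all tested, and 0.33 to 0.835 of it over the alternatives where it could be computed. Members near the floor, and P10 replicates 1 and 2 as the arrays with the lowest signal, limit what can be read.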
